A study of Capra hircus with 13 samples.

Results

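The transcripts of 48 spliceosome and SR protein genes were followed from the goat oocyte to the 8-cell embryo, and in 8-cell embryos after knockdown of *YTHDF2*. The genes were taken by name alone from the 18138 gene names that were listed once in every table. They were the subunits of the SF3A and SF3B complexes (9 genes), the U2AF subunits (3 genes), the SNRP proteins (12 genes), the PRPF factors (13 genes) and the SRSF proteins (11 genes). The series held 13 libraries of polyA RNA from *Capra hircus* made with Smart-seq2, a method that copies full-length cDNA from lysed cells. Mature metaphase II (MII) oocytes, untreated 4-cell embryos and untreated 8-cell embryos had 3 libraries each. Embryos injected with a negative control siRNA (NC) and embryos injected with siRNA against *YTHDF2* (YTHDF2-KD) had 2 libraries each, and both were collected at the 8-cell stage. Injection was made 8 h after *in vitro* fertilization, at 20 µM for the *YTHDF2* siRNA. Each injected library was a pool of embryos, and the study collected its embryos for sequencing at 72 h after fertilization. Neither the strain nor the age of the donor animals is given for any group, and the hour of collection is not given for the untreated libraries one by one. The untreated libraries came from earlier studies by the same laboratory, and which study gave which library is not given in the sources used here. Stage and source study therefore cannot be told apart where they coincide.

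The spliceosome removes introns from pre-mRNA. It is built from small nuclear ribonucleoproteins (snRNPs), each holding a small nuclear RNA with a ring of Sm proteins or, in U6 snRNP, of LSm proteins, and from many further proteins that join and leave in order. U1 snRNP binds the 5′ splice site, U2AF binds the 3′ splice site, and U2 snRNP with its SF3A and SF3B subcomplexes then binds the branch point. The U4/U6.U5 tri-snRNP, which carries several PRPF proteins, brings in the catalytic RNAs. SR proteins bind exonic sequences through RNA recognition motifs and help to choose splice sites through their arginine- and serine-rich domains. Before the embryonic genome is activated the embryo depends on transcripts that the oocyte has stored, so that transcripts of these machines in MII oocytes are maternal.

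All values were FPKM, that is fragment counts scaled for exon length and for library size, which the authors had computed before deposit. Library totals recovered from the steps of the FPKM values ranged from 26853876 to 42495116 fragments in the 9 untreated libraries, and 38 of the 48 genes had at least 100 fragments in each of them. The lowest count was 1 fragment, for *PRPF31*. Depth could not be recovered for the injected libraries, whose values were rounded. Replicates of one group correlated at 0.9465 to 0.9775 over log2 values, other than 8-cell replicate 1, which correlated at 0.8538 and 0.8983 with the other 8-cell libraries. In that library 7 of the 46 tested genes were more than 2-fold above both other 8-cell libraries (*PRPF19*, *PRPF40B*, *PRPF6*, *SNRPA*, *SRSF4*, *SRSF9* and *U2AF2*), against 19.3% of all tested genes. Genes that are expressed in the oocyte (*ZP3*, *GDF9* and the like, 9 listed) summed to 1450 to 2421 FPKM in MII oocytes, 2090 to 3325 in 4-cell and 2497 to 2843 in 8-cell embryos, and none of them was at 0. The 13 listed cumulus or granulosa cell genes summed to 57.4 to 77.2 FPKM in MII oocytes, 68.5 to 75.1 in 4-cell and 95.8 to 143 in 8-cell embryos, where *INHA* was at 0. FPKM gives a share of a library, so less RNA of one gene and more RNA of the others cannot be told apart, and neither can fewer cells and less RNA per cell.

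All of the genes were detected in every library. The mean level ranged from 0.136 FPKM (*PRPF31*) to 499 FPKM (*SNRPB2*) in MII oocytes, with a median of 13.7, and the medians were 22.4 in 4-cell and 21.4 in 8-cell embryos. On this per-length scale the highest gene over the untreated libraries was *SNRPB2* (mean 455 FPKM), which encodes a U2 snRNP protein, and *SNRPD3* (176 FPKM), of the Sm ring, was among the highest 3. The families differed in the stage that held their highest mean. Of the 12 SNRP genes 9 were highest in MII oocytes and 0 in 8-cell embryos, whereas of the 11 SRSF genes 1 was highest in MII oocytes and 7 in 8-cell embryos. The summed level of the Sm ring genes was 950 ± 130 FPKM (SD, n = 3) in MII oocytes, 632 ± 124 in 4-cell and 430 ± 138 in 8-cell embryos. For the SRSF genes the sum was 266 ± 49.0 FPKM in MII oocytes, 391 ± 54.5 in 4-cell and 425 ± 96.1 in 8-cell embryos. Single genes weighed on this sum. Over the 3 stages *SRSF3* had means of 17.4, 49.1 and 146 FPKM, with 253 in 8-cell replicate 2. The means of *SRSF7* went the other way, at 142, 135 and 63.6 FPKM. The listed FPKM of all genes itself summed to 277140 to 289023 in MII oocytes and to 373280 to 431388 in the embryos. As a share of it the SRSF genes made up 0.0935% ± 0.0169 (SD, n = 3), 0.0948% ± 0.0141 and 0.111% ± 0.0216 at the 3 stages, with SDs that overlap, and the Sm ring genes 0.335% ± 0.0501, 0.152% ± 0.0227 and 0.112% ± 0.0319.

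**Figure D1:**
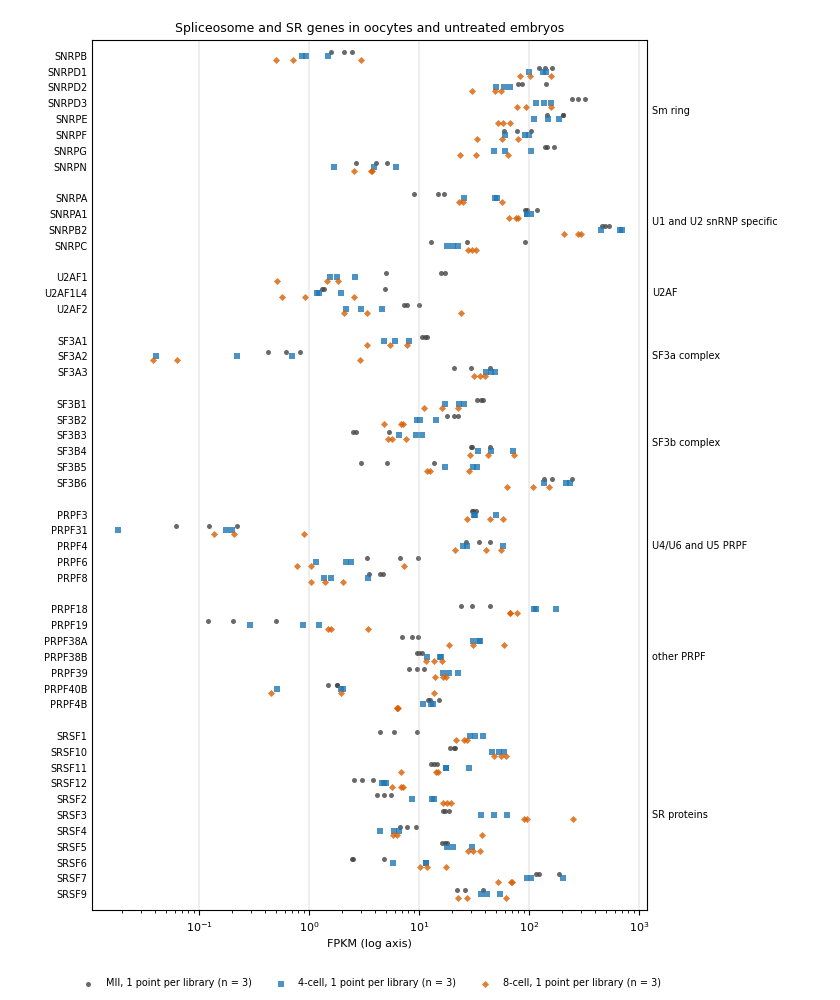
FPKM of 47 of the genes in the 9 untreated libraries, on a log axis, with 1 point per library, sorted by complex. *SNRPG*, *SNRPD3* and *U2AF1* lie to the right in MII oocytes, *SRSF1* and *SRSF3* lie to the left, and *PRPF31* and *SF3A2* are the lowest genes.

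To determine how these transcripts changed during the maternal-to-zygotic transition, the 3 stages were compared by limma on log2(FPKM + 1), with genes under a mean of 1 FPKM left out. Of the 48 genes 46 were tested, since *PRPF31* and *SF3A2* had lower means. At an adjusted p under 0.05, 12 genes rose and 4 fell in 4-cell embryos compared to MII oocytes, and among all 9090 genes 24.7% rose and 6.42% fell. In 8-cell embryos compared to MII oocytes 13 rose and 13 fell, where 27.3% of all genes rose and 10.0% fell. Thus the genes that fell were 13 of 46 at the 8-cell stage, and the genes that rose were near the share of all genes at both stages. Both comparisons share the MII libraries. The median log2 fold change of the 46 genes was 0.09 at the 4-cell stage, against 0.29 for all genes, and -0.0023 at the 8-cell stage, against 0.37 for all genes. Between the 4-cell and 8-cell stages 1 gene rose and 3 fell, with 3.06% and 5.24% of all genes called. With the thresholds of the study's own lists, an unadjusted p under 0.05 and a change over 2-fold, here set on the limma p-values and the FPKM + 1 scale where the study tested counts with another tool, 11 genes rose and 4 fell at the 4-cell stage (16.7% and 6.06% of all genes), 10 rose and 9 fell at the 8-cell stage (19.8% and 8.14%), and 1 rose and 3 fell between them (4.55% and 4.28%). In 15 genes all 4-cell libraries were above all MII libraries and in 12 they were below, against 37.8% and 14.1% of all genes. At the 8-cell stage 14 were above and 13 below, against 36.4% and 13.7%, and between the embryo stages 5 were above and 11 below, against 11.6% and 16.6%.

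The split between rising and falling genes depended on how the libraries were scaled. The genes listed at all 3 stages held 62.8% to 64.6% of all fragments in MII oocytes and 89.4% to 93.6% in the embryos. The gene listing of MII oocytes had 18957 rows, and those of 4-cell and 8-cell embryos had 22107 each. Stage and this difference of listing cannot be told apart in the comparisons with MII oocytes. When every library was given the same sum over the shared genes, 5 genes were called higher and 10 lower at the 4-cell stage, and 7 higher and 16 lower at the 8-cell stage. Of all genes 9.54% were then higher and 13.4% lower in 4-cell embryos, and 14.7% higher and 16.3% lower in 8-cell embryos. Median-ratio scaling gave 9 higher and 7 lower at the 4-cell stage and 6 higher and 14 lower at the 8-cell stage, quantile normalization 9 and 10 and then 8 and 16, and voom on recovered fragments 5 and 12 and then 7 and 17. The shares of all genes called higher and lower were 12.2% and 10.4% and then 15.2% and 15.1% with median-ratio scaling, 12.6% and 11.4% and then 15.7% and 17.1% with quantile normalization, and 10.2% and 14.4% and then 13.9% and 19.0% by voom. The corresponding median over all genes moved from 0.29 to -0.14 with equal sums and to 0.06 with median-ratio scaling at the 4-cell stage, and from 0.37 to 0.02 and 0.05 at the 8-cell stage. The 4 genes that fell at the 4-cell stage and the 13 that fell at the 8-cell stage were called lower under each of 4 other scalings. Of those that rose, 5 of 12 at the 4-cell stage (among them *PRPF18*, *PRPF38A*, *SRSF1* and *SRSF10*) and 7 of 13 at the 8-cell stage (*PRPF19*, *PRPF38A*, *SRSF1*, *SRSF2*, *SRSF3*, *SRSF6* and *SRSF10*) were called higher under each of the scalings in which they were tested. None of the called genes changed sign under a scaling. Of the genes below 0 that did not pass, *SF3A1* and *PRPF8* at the 4-cell stage were called lower in all 4 other scalings (adjusted p up to 0.0174 and 0.0213). A further 4 at that stage (*PRPF6*, *SF3B1*, *SNRPD2* and *SNRPE*) and 3 at the 8-cell stage (*PRPF6*, *SF3B6* and *SNRPD1*) were called lower in 3 of the 4. Between the embryo stages the call of *SNRPE* was kept in all 4, and those of *SNRPB2* and *SRSF3* in 3 of them.

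Single libraries also mattered. Without 8-cell replicate 1, the library that stood apart, 12 genes rose and 10 fell at the 4-cell stage, 11 rose and 15 fell at the 8-cell stage, and 1 rose and 3 fell between them. In these fits 30.4% of all genes rose and 10.2% fell in 4-cell embryos, 28.6% and 13.7% in 8-cell embryos, and 2.70% and 3.95% between them. Without MII replicate 1, 7 rose and 1 fell at the 4-cell stage, where 16.5% of all genes rose and 3.37% fell, and the calls of *SF3B2*, *SF3B3*, *SF3B5*, *SNRPA*, *SNRPD3*, *SNRPG*, *SRSF3* and *SRSF6* were lost. Between them these 8 genes lost calls in fits without each of the other MII and 4-cell libraries too, and *SNRPG* also without 8-cell replicate 3, with adjusted p up to 0.0591 (*SNRPD3*) to 0.127 (*SNRPG*). At the 8-cell stage the calls of *PRPF39*, *PRPF8*, *SF3A1*, *SNRPA*, *SNRPA1* and *SRSF7* were lost in one or more of these fits, with adjusted p up to 0.0639 (*PRPF8*) to 0.158 (*SNRPA1*), and that of *SNRPA* was the one lost without 8-cell replicate 1. Each of the 4 calls between the embryo stages was lost without 4-cell replicate 3, with adjusted p up to 0.0506 (*SNRPE*) to 0.167 (*SRSF3*) over all such fits. The other 8 of the 16 calls in 4-cell embryos and the other 20 of the 26 in 8-cell embryos were kept in every fit without 1 library that tested the gene.

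**Figure D2:**
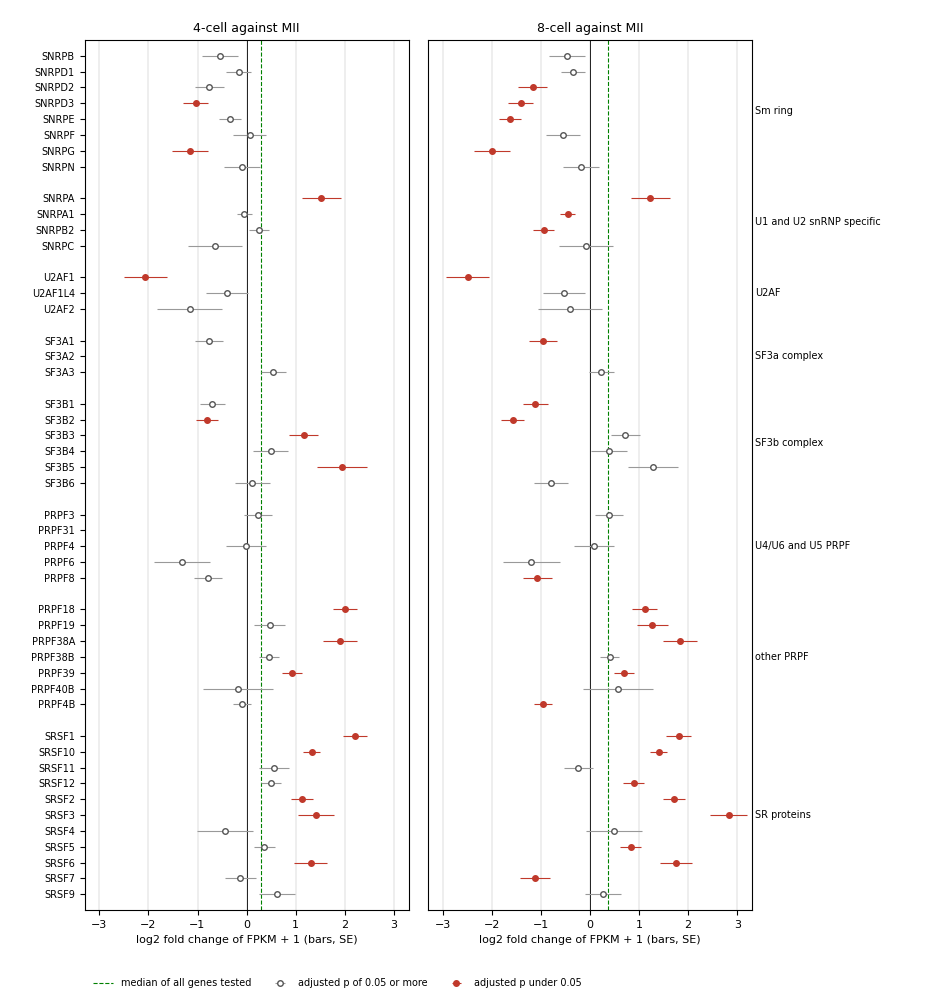
Log2 fold change of FPKM + 1 with its SE for 45 of the tested genes, in 4-cell (left) and 8-cell (right) embryos against MII oocytes, both against the same 3 MII libraries. Filled red points passed an adjusted p of 0.05, open points did not, and the dashed line is the median of all 9090 genes (0.29 and 0.37). At the 8-cell stage the Sm ring lies left of 0 and most SR proteins lie right of it.

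The Sm ring proteins (*SNRPB*, *SNRPD1*, *SNRPD2*, *SNRPD3*, *SNRPE*, *SNRPF*, *SNRPG* and the paralog *SNRPN*) form the core of the U1, U2, U4 and U5 snRNPs. Of the 8 genes 0 rose and 4 fell at the 8-cell stage, with a median log2 fold change of -0.86, and each of the 8 was below 0 although 4 of them did not pass the test. Of all tested genes 27.3% rose and 10.0% fell at this stage. *SNRPG* was at 171, 139 and 145 FPKM in the MII oocyte libraries, 104, 48.0 and 60.0 in the 4-cell libraries and 23.8, 63.9 and 32.7 in the 8-cell libraries. All embryo libraries were below all MII libraries, and the 4-cell and 8-cell values overlapped. *SNRPG* fell in 4-cell embryos (log2 fold change -1.16 ± 0.37 (SE), adjusted p = 0.0390) and in 8-cell embryos (log2 fold change -2.00 ± 0.37 (SE), adjusted p = 0.00261) compared to MII oocytes. The 4-cell call was lost in 6 of the 9 fits that left out 1 library, and the 8-cell call in none of them.

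*SNRPD3* was at 322, 278 and 245 FPKM in the MII oocyte libraries, 138, 117 and 157 in the 4-cell libraries and 93.6, 158 and 78.2 in the 8-cell libraries. Its lowest MII value was above every embryo value. *SNRPD3* fell at the 4-cell stage (log2 fold change -1.03 ± 0.26 (SE), adjusted p = 0.0136) and also in 8-cell embryos (log2 fold change -1.41 ± 0.26 (SE), adjusted p = 0.00243). *SNRPE* was at 206, 203 and 147 FPKM in the MII oocyte libraries, 187, 110.2 and 150.1 in the 4-cell libraries and 58.1, 66.9 and 51.9 in the 8-cell libraries. The 8-cell libraries lay below those of both other stages, whose values overlapped. *SNRPE* fell in 8-cell embryos compared to MII oocytes (log2 fold change -1.63 ± 0.23 (SE), adjusted p = 6.50e-04) and compared to 4-cell embryos (log2 fold change -1.30 ± 0.23 (SE), adjusted p = 0.0113), and did not pass at the 4-cell stage (log2 fold change -0.33 ± 0.23 (SE), adjusted p = 0.302).

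*SNRPD2* was at 86.1, 144 and 79.2 FPKM in the MII oocyte libraries, 59.5, 50.1 and 67.0 in the 4-cell libraries and 30.4, 56.0 and 48.6 in the 8-cell libraries. It fell at the 8-cell stage (log2 fold change -1.17 ± 0.29 (SE), adjusted p = 0.0108), and its groups lay apart at the 4-cell stage without passing the test (log2 fold change -0.76 ± 0.29 (SE), adjusted p = 0.0723). For *SNRPD1* and *SNRPF* the stages overlapped, and their 8-cell log2 fold changes were -0.34 ± 0.25 and -0.55 ± 0.34 (SE). The remaining Sm genes were far lower. *SNRPB*, which encodes the B and B′ proteins of the ring, was at 1.59, 2.07 and 2.45 FPKM in the MII oocyte libraries, 0.867, 1.49 and 0.931 in the 4-cell libraries and 0.722, 2.95 and 0.499 in the 8-cell libraries, and *SNRPN*, its close paralog, was between 1.67 and 6.12 FPKM in the 9 libraries. Only uniquely placed reads were counted, so the levels of these close paralogs are uncertain, and the part of shared reads in them was not tested. The Sm genes other than *SNRPB* and *SNRPN* ranged from 23.8 to 322 FPKM in the same libraries.

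The 4 proteins that belong to U1 or U2 snRNP alone did not move together. *SNRPA*, the A protein of U1 snRNP, which binds a loop of its RNA, rose at the 4-cell stage (log2 fold change 1.53 ± 0.40 (SE), adjusted p = 0.0180) and also in 8-cell embryos (log2 fold change 1.23 ± 0.40 (SE), adjusted p = 0.0371). The 4-cell call was lost in 3 of 9 fits without 1 library and was kept in 2 of 4 other scalings. The 8-cell call was lost in 4 of 9 fits, where the log2 fold change went down to 0.83, and was kept in 0 of the 4 scalings (adjusted p up to 0.212). *SNRPB2*, the B″ protein of U2 snRNP and the gene of the highest mean over the untreated libraries, was at 539.6, 466 and 492 FPKM in the MII oocyte libraries, 666, 451 and 695 in the 4-cell libraries and 208, 296 and 279 in the 8-cell libraries. Its MII and 4-cell values overlapped and its 8-cell values were the lowest 3. *SNRPB2* fell at the 8-cell stage compared to MII oocytes (log2 fold change -0.95 ± 0.21 (SE), adjusted p = 0.00621) and to 4-cell embryos (log2 fold change -1.20 ± 0.21 (SE), adjusted p = 0.0113). *SNRPA1*, its A′ partner in U2 snRNP, fell less at the 8-cell stage (log2 fold change -0.45 ± 0.16 (SE), adjusted p = 0.0462), and that call was lost in 8 of the 9 fits that left out 1 library. *SNRPC*, the C protein of U1 snRNP, was at 27.4, 92.5 and 12.8 FPKM in the MII oocyte libraries, 18.0, 22.9 and 20.2 in the 4-cell libraries and 28.1, 32.9 and 30.4 in the 8-cell libraries. Its MII values spread over more than its embryo values did, and it did not pass at either stage.

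*U2AF1*, the small U2AF subunit that reads the AG of the 3′ splice site, had the deepest fall of the 46 genes at both stages. It was at 15.9, 17.3 and 5.06 FPKM in the MII oocyte libraries, 1.79, 1.55 and 2.63 in the 4-cell libraries and 1.46, 1.83 and 0.511 in the 8-cell libraries. The lowest MII library, replicate 3, was still above every embryo library. *U2AF1* fell in 4-cell embryos (log2 fold change -2.06 ± 0.43 (SE), adjusted p = 0.00663) and in 8-cell embryos (log2 fold change -2.49 ± 0.43 (SE), adjusted p = 0.00202), which were changes of 4.17-fold and 5.62-fold on the FPKM + 1 scale. The large subunit *U2AF2*, which binds the polypyrimidine tract, was at 9.94, 7.71 and 7.26 FPKM in the MII oocyte libraries, 2.95, 4.59 and 2.18 in the 4-cell libraries and 23.9, 2.10 and 3.38 in the 8-cell libraries. Its single high 8-cell value was in replicate 1, the library that stood apart. *U2AF2* did not pass at the 4-cell stage (log2 fold change -1.16 ± 0.66 (SE), adjusted p = 0.211) or at the 8-cell stage (log2 fold change -0.41 ± 0.66 (SE), adjusted p = 0.660). The paralog *U2AF1L4* was between 0.569 and 4.90 FPKM and did not pass.

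In the SF3A and SF3B complexes, which hold U2 snRNP on the branch point, subunits changed in opposite directions. Of the 8 genes tested 2 rose and 1 fell at the 4-cell stage, and 0 rose and 3 fell at the 8-cell stage, where of all genes 24.7% rose and 6.42% fell and then 27.3% rose and 10.0% fell. *SF3B2*, whose protein contacts RNA beside the branch point, was at 22.6, 17.9 and 21.0 FPKM in the MII oocyte libraries, 10.3, 14.4 and 9.62 in the 4-cell libraries and 6.82, 4.76 and 7.21 in the 8-cell libraries. All of its embryo values were below all of its MII values. It fell at the 4-cell stage (log2 fold change -0.80 ± 0.23 (SE), adjusted p = 0.0249) and also in 8-cell embryos (log2 fold change -1.58 ± 0.23 (SE), adjusted p = 7.86e-04), and the first of these calls was lost in 4 of 9 fits with 1 library left out. *SF3B1*, the largest subunit, which clamps the branch helix, was at 37.9, 33.5 and 36.5 FPKM in the MII oocyte libraries, 22.9, 25.9 and 17.4 in the 4-cell libraries and 11.2, 22.6 and 16.2 in the 8-cell libraries. It fell at the 8-cell stage (log2 fold change -1.12 ± 0.25 (SE), adjusted p = 0.00779), while its 4-cell and MII groups lay apart without passing (log2 fold change -0.70 ± 0.25 (SE), adjusted p = 0.0642). *SF3A1* fell at the 8-cell stage (log2 fold change -0.96 ± 0.29 (SE), adjusted p = 0.0253), a call that was lost in 5 of 9 fits, and did not pass at the 4-cell stage (log2 fold change -0.77 ± 0.29 (SE), adjusted p = 0.0675), where it was called lower in all 4 other scalings.

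*SF3B5*, a small subunit of SF3B, went the other way. It was at 5.13, 13.8 and 2.97 FPKM in the MII oocyte libraries, 33.8, 17.4 and 31.1 in the 4-cell libraries and 12.5, 28.4 and 11.9 in the 8-cell libraries. The 4-cell libraries lay above all MII libraries, and the 8-cell libraries overlapped with both. *SF3B5* rose at the 4-cell stage (log2 fold change 1.95 ± 0.50 (SE), adjusted p = 0.0168) and did not pass at the 8-cell stage (log2 fold change 1.28 ± 0.50 (SE), adjusted p = 0.0732). *SF3B3*, the scaffold subunit, also rose at the 4-cell stage (log2 fold change 1.17 ± 0.29 (SE), adjusted p = 0.0147) and did not pass at the 8-cell stage (log2 fold change 0.72 ± 0.29 (SE), adjusted p = 0.0801). Both calls depended on single libraries, being lost in 4 and 3 of 9 fits, and each was kept in 2 of 4 other scalings. *SF3A3*, *SF3B4* and *SF3B6* did not pass at any stage. *SF3A2* was below the level that was tested. It was at 0.612, 0.825 and 0.425 FPKM in the MII oocyte libraries, 0.0405, 0.694 and 0.223 in the 4-cell libraries and 2.92, 0.0635 and 0.0384 in the 8-cell libraries, of which the high value is again 8-cell replicate 1, and 3 fragments of this gene would give 0.0411 to 0.0650 FPKM.

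Of the 5 PRPF genes that encode proteins of U4/U6 or U5 snRNP, 4 were tested and 0 rose at either stage compared to MII oocytes, where 24.7% and 27.3% of all genes rose. *PRPF8*, the U5 protein at the catalytic core, was at 4.44, 4.67 and 3.52 FPKM in the MII oocyte libraries, 1.38, 3.41 and 1.58 in the 4-cell libraries and 2.03, 1.05 and 1.41 in the 8-cell libraries. Its embryo values were below its MII values. It fell at the 8-cell stage (log2 fold change -1.07 ± 0.29 (SE), adjusted p = 0.0177), a call lost in 4 of 9 fits, and did not pass at the 4-cell stage (log2 fold change -0.79 ± 0.29 (SE), adjusted p = 0.0683), where it was called lower in all 4 other scalings. *PRPF3*, *PRPF4* and *PRPF6* did not pass. *PRPF31*, which holds the tri-snRNP together, was at 0.0611, 0.223 and 0.123 FPKM in the MII oocyte libraries, 0.0182, 0.175 and 0.200 in the 4-cell libraries and 0.906, 0.209 and 0.138 in the 8-cell libraries, and 3 of its fragments would give 0.0369 to 0.0584 FPKM.

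Of the other 8 PRPF genes 4 rose at the 4-cell stage and 5 rose at the 8-cell stage, while 1 fell at the 8-cell stage, where 24.7% of all genes rose at the first stage, and 27.3% rose and 10.0% fell at the second. *PRPF18*, a factor of the second catalytic step, was at 30.5, 44.0 and 24.3 FPKM in the MII oocyte libraries, 112, 115 and 176 in the 4-cell libraries and 67.4, 66.6 and 77.3 in the 8-cell libraries. The lowest 4-cell value was more than any MII or 8-cell value. *PRPF18* rose at the 4-cell stage (log2 fold change 2.00 ± 0.25 (SE), adjusted p = 5.43e-04) and also in 8-cell embryos (log2 fold change 1.11 ± 0.25 (SE), adjusted p = 0.00711), of which the second call was kept in 1 of 4 other scalings, and the difference between the embryo stages did not pass (log2 fold change -0.89 ± 0.25 (SE), adjusted p = 0.0589). *PRPF38A*, a factor needed to activate the spliceosome, was at 8.60, 9.81 and 7.01 FPKM in the MII oocyte libraries, 30.8, 35.4 and 36.1 in the 4-cell libraries and 18.7, 59.1 and 30.9 in the 8-cell libraries. All embryo values were above the MII values, with the 8-cell libraries spread around those of the 4-cell stage. It rose at the 4-cell stage (log2 fold change 1.90 ± 0.35 (SE), adjusted p = 0.00359) and also in 8-cell embryos (log2 fold change 1.83 ± 0.35 (SE), adjusted p = 0.00315).

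*PRPF39*, which works with U1 snRNP, rose at both stages (0.93 ± 0.20 and 0.69 ± 0.20 on the log2 scale). Neither call of *PRPF39* was kept in any of the 4 other scalings, with log2 fold changes down to 0.43 (adjusted p up to 0.158) and 0.24 (adjusted p up to 0.461), and the 8-cell call was also lost in 4 of 9 fits without 1 library. *PRPF19*, a ubiquitin ligase of the catalytic spliceosome, was at 0.204, 0.502 and 0.120 FPKM in the MII oocyte libraries, 0.291, 1.23 and 0.876 in the 4-cell libraries and 3.43, 1.57 and 1.49 in the 8-cell libraries. It rose at the 8-cell stage (log2 fold change 1.27 ± 0.32 (SE), adjusted p = 0.0121). *PRPF4B* is a kinase that phosphorylates tri-snRNP proteins. It was at 15.3, 12.5 and 12.1 FPKM in the MII oocyte libraries, 10.9, 13.5 and 12.8 in the 4-cell libraries and 6.26, 6.37 and 6.50 in the 8-cell libraries, with its 8-cell libraries close together and below all others. *PRPF4B* fell at the 8-cell stage compared to MII oocytes (log2 fold change -0.95 ± 0.18 (SE), adjusted p = 0.00339) and to 4-cell embryos (log2 fold change -0.86 ± 0.18 (SE), adjusted p = 0.0253), of which the second call was lost in 5 of 9 fits without 1 library and kept in 2 of 4 other scalings (adjusted p up to 0.0608). *PRPF38B* and *PRPF40B* did not pass.

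Among the 11 SR protein genes 5 rose and 0 fell at the 4-cell stage, and 7 rose and 1 fell at the 8-cell stage, where of all tested genes 24.7% rose and 6.42% fell and then 27.3% rose and 10.0% fell. At the 4-cell stage the calls of *SRSF1* and *SRSF10* were kept in all 4 other scalings, that of *SRSF2* in 2, and those of *SRSF3* and *SRSF6* in 0. At the 8-cell stage those of *SRSF5* and *SRSF12* were kept in 0 and the other 6 in all 4. The median log2 fold changes of the 11 genes were 0.62 and 0.89. *SRSF3*, the smallest SR protein, was at 16.6, 17.1 and 18.6 FPKM in the MII oocyte libraries, 37.0, 62.7 and 47.7 in the 4-cell libraries and 95.1, 253 and 89.7 in the 8-cell libraries. Each stage lay above the one before it, and 8-cell replicate 2 was the highest library. *SRSF3* rose at the 4-cell stage (log2 fold change 1.41 ± 0.37 (SE), adjusted p = 0.0177) and also in 8-cell embryos (log2 fold change 2.82 ± 0.37 (SE), adjusted p = 4.87e-04), which was 7.08-fold on the FPKM + 1 scale and the largest increase of the set in this fit. In the other scalings the 8-cell log2 fold change reached 2.45 for *SRSF3* and 2.58 for *PRPF19*. *SRSF3* was also the one gene of the set that rose between 4-cell and 8-cell embryos (log2 fold change 1.41 ± 0.37 (SE), adjusted p = 0.0475), a call that was lost in 8 of 9 fits.

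*SRSF1*, a factor that strengthens 5′ splice sites and has roles outside the nucleus, was at 5.97, 9.50 and 4.46 FPKM in the MII oocyte libraries, 38.2, 32.4 and 29.1 in the 4-cell libraries and 27.1, 25.4 and 21.9 in the 8-cell libraries. Its embryo libraries were all above its MII libraries, and its 8-cell values were below its 4-cell values. It rose at the 4-cell stage (log2 fold change 2.21 ± 0.25 (SE), adjusted p = 3.76e-04), the largest increase at that stage, and at the 8-cell stage (log2 fold change 1.80 ± 0.25 (SE), adjusted p = 6.61e-04). *SRSF6* was at 2.45, 2.51 and 4.81 FPKM in the MII oocyte libraries, 11.5, 11.5 and 5.80 in the 4-cell libraries and 11.8, 17.7 and 10.3 in the 8-cell libraries. It rose at both stages (log2 fold change 1.31 ± 0.33 (SE), adjusted p = 0.0159 and log2 fold change 1.75 ± 0.33 (SE), adjusted p = 0.00310). *SRSF2*, a nuclear SR protein that marks speckles, rose at both stages (1.13 ± 0.22 and 1.71 ± 0.22, log2), and so did *SRSF10*, which is known for its regulation by dephosphorylation (1.33 ± 0.17 and 1.40 ± 0.17).

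The remaining SR genes were less uniform. *SRSF5* was at 17.1, 16.3 and 18.1 FPKM in the MII oocyte libraries, 20.2, 18.0 and 30.2 in the 4-cell libraries and 30.7, 35.7 and 28.0 in the 8-cell libraries. It rose at the 8-cell stage (log2 fold change 0.83 ± 0.21 (SE), adjusted p = 0.0135) and not at the 4-cell stage (log2 fold change 0.36 ± 0.21 (SE), adjusted p = 0.236). *SRSF12* was at 3.01, 3.80 and 2.58 FPKM in the MII oocyte libraries, 4.99, 4.62 and 4.80 in the 4-cell libraries and 5.73, 6.91 and 7.19 in the 8-cell libraries, with the stages apart and in order. It rose at the 8-cell stage (log2 fold change 0.89 ± 0.21 (SE), adjusted p = 0.00870) and did not pass at the 4-cell stage (log2 fold change 0.50 ± 0.21 (SE), adjusted p = 0.0948). *SRSF7* was the one SR gene that fell, being at 142 ± 39.5 FPKM (SD, n = 3) in MII oocytes, 135 ± 61.3 in 4-cell and 63.6 ± 10.3 in 8-cell embryos (log2 fold change -1.13 ± 0.31 (SE), adjusted p = 0.0177 at the 8-cell stage). *SRSF4*, *SRSF9* and *SRSF11* did not pass at any stage. The values of *SRSF4* were 7.77, 6.70 and 9.37 FPKM in the MII oocyte libraries, 5.94, 6.57 and 4.39 in the 4-cell libraries and 37.6, 6.35 and 5.83 in the 8-cell libraries, so that its 8-cell mean of 16.6 rested on replicate 1.

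Transcript length moved with these changes. Exon lengths were not annotated ones but were recovered from the steps of the FPKM values, as the shortest length that gave whole fragments. Of the 46 tested genes 16 had an exon model under 1500 bases, among them all Sm genes other than *SNRPG*. At the 8-cell stage the median log2 fold change was -0.50 in these 16 and 0.45 in the 30 longer ones, and over all genes it was -0.01 and 0.42. The Spearman correlation of exon length with the 8-cell log2 fold change was 0.35 over the 46 genes and 0.11 over all 9090 genes. These are descriptions across genes of one set of libraries, and the part of length in the results was not tested.

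**Figure D3:**
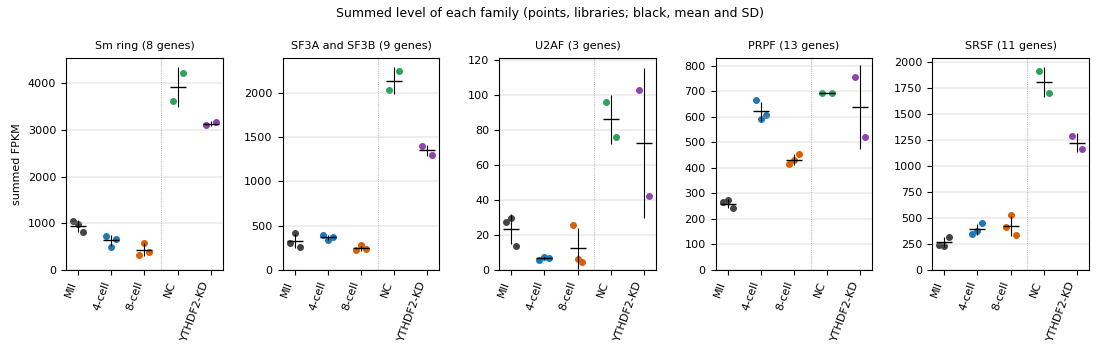
Summed FPKM of 5 families in each library (points), with the mean and SD of each group in black. Groups right of the dotted line were injected and normalized apart from the untreated ones. From MII oocytes to 8-cell embryos the mean Sm ring sum goes from 950 to 430 FPKM and the SRSF sum from 266 to 425. Within the SRSF sum the mean of *SRSF3* goes from 17.4 to 146 FPKM and that of *SRSF7* from 142 to 63.6. The listed FPKM of all genes is also higher in the embryos, and every sum of the NC embryos is above those of the untreated 8-cell embryos.

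YTHDF2 is a cytoplasmic reader of N6-methyladenosine that recruits the deadenylation machinery to mRNA. To ask how its loss affects these transcripts, YTHDF2-KD embryos were compared to NC embryos. The antisense strands of the 2 siRNAs listed for the knockdown are shown since they are the reagent of this comparison, with bases 2 to 8, which pair first with a target, in capitals.
s28148: uUGCUAGCaauaucagcccaa
s28147: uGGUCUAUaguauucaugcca
*YTHDF2* itself was at 112 and 159 FPKM in the NC libraries and at 8.07 and 4.47 in the YTHDF2-KD libraries (log2 fold change -4.25 ± 0.43 (SE), adjusted p = 3.67e-04). Values of NC and YTHDF2-KD replicates correlated at 0.9473 and 0.951 within the group.

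All 48 genes were tested here. At an adjusted p under 0.05, 0 rose and 2 fell, *SF3B5* and *SNRPD2*, where 2.06% of all 11004 genes rose and 5.92% fell. By the limma test at an unadjusted p under 0.05, 0 were higher and 8 lower, against 11.9% and 17.6% of all genes. By the thresholds of the study, set on these limma values, 0 were higher and 5 lower, among 9.48% and 15.3% of all genes. In 16 genes both YTHDF2-KD libraries were below both NC libraries and in 3 they were above, whereas of all genes 30.7% lay apart downward and 30.3% upward. The median log2 fold change was -0.23 for the set and 0.01 for all genes. Exon length moved with this comparison too, with medians of -0.48 for the 16 genes under 1500 bases and -0.17 for the 32 longer ones. Over the 10290 tested genes whose length was recovered from the untreated libraries they were -0.31 and 0.11.

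*SF3B5* was at 674 and 525 FPKM in NC and 270.4 and 135 in YTHDF2-KD embryos. Both YTHDF2-KD libraries were below both NC libraries, and they differed 2-fold from each other. *SF3B5* fell (log2 fold change -1.63 ± 0.41 (SE), adjusted p = 0.0297), which was 3.10-fold on the FPKM + 1 scale. *SNRPD2* was at 422 and 321 FPKM in NC and 146 and 132 in YTHDF2-KD embryos, and it fell as well (log2 fold change -1.40 ± 0.38 (SE), adjusted p = 0.0366), by 2.65-fold. Both calls were lost when NC replicate 1, NC replicate 2 or YTHDF2-KD replicate 2 was left out, with adjusted p up to 0.231 for *SF3B5* and 0.147 for *SNRPD2*. One gene outside the set, *TMSB4X*, made up 4.00% and 5.35% of the listed FPKM in NC embryos and 9.87% and 12.6% in YTHDF2-KD embryos. When libraries were set to the same sum without the 50 highest genes, 0 genes of the set were called higher and 1 lower. Of all 11000 genes in that fit 396 were called higher and 480 lower. The median of the set was -0.04, against 0.16 for all genes. With median-ratio scaling or quantile normalization limma called 0 genes of the set. Of all genes 0.692% were then called higher and 3.19% lower with the first, and 0.691% and 1.91% with the second. At an unadjusted p under 0.05 by limma, 6 and 5 genes of the set were lower and 0 and 1 higher. Both oocyte and cumulus cell genes were higher in YTHDF2-KD embryos, at 996 to 1827 FPKM for the 9 oocyte genes against 492 to 736 in NC embryos, and at 82.1 to 91.6 FPKM for the 13 cumulus cell genes against 46.1 to 55.1. Of the 13, *FSHR* and *INHA* were at 0 in both NC and YTHDF2-KD embryos, and *PTGS2* was at 0 in the latter. The 3 listed genes of spermatozoa summed to 12.3 to 12.6 FPKM in NC embryos and to 3.51 to 25.1 in YTHDF2-KD embryos. The part of these cells in the result was not tested.

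The other Sm ring genes did not pass the adjusted test. Of all 8 Sm ring genes 1 had a log2 fold change above 0. The groups lay apart downward in 4 and upward in 1, against 30.7% and 30.3% of all genes. The median log2 fold change of the 8 was -0.63. *SNRPB* was at 343 and 400.0 FPKM in NC and 233 and 122 in YTHDF2-KD embryos (log2 fold change -1.13 ± 0.41 (SE), adjusted p = 0.0908), and *SNRPE* was at 331 and 379 FPKM in NC and 154 and 195 in YTHDF2-KD embryos (log2 fold change -1.03 ± 0.37 (SE), adjusted p = 0.0936). Neither gene overlapped between the groups. *SNRPD3* was the exception of the ring, at 469 and 398 FPKM in NC and 614 and 684 in YTHDF2-KD embryos (log2 fold change 0.58 ± 0.36 (SE), adjusted p = 0.287). *SNRPD1*, *SNRPF*, *SNRPG* and *SNRPN* had log2 fold changes between -0.75 and -0.09, and the groups overlapped for these genes other than *SNRPF*. The U1 protein gene *SNRPC* was at 195 and 159 FPKM in NC and 110.0 and 81.9 in YTHDF2-KD embryos (log2 fold change -0.88 ± 0.39 (SE), adjusted p = 0.148), while *SNRPA*, *SNRPA1* and *SNRPB2* had log2 fold changes of -0.20 ± 0.40, 0.05 ± 0.38 and 0.15 ± 0.37.

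*SRSF6* had the largest change of the SR genes. It was at 118 and 97.0 FPKM in NC and 45.3 and 48.6 in YTHDF2-KD embryos, with libraries of each group close together, and did not pass after adjustment (log2 fold change -1.18 ± 0.39 (SE), adjusted p = 0.0731). *SRSF5* was at 216 and 265 FPKM in NC and 182 and 78.0 in YTHDF2-KD embryos (log2 fold change -0.998 ± 0.44 (SE), adjusted p = 0.148), and *SRSF3*, the SR gene of the highest mean in NC embryos, at 1149 and 899 FPKM in NC and 689.8 and 724 in YTHDF2-KD embryos (log2 fold change -0.52 ± 0.35 (SE), adjusted p = 0.331). Both were lower in each YTHDF2-KD library than in each NC library. *SRSF1* was at 44.4 and 63.6 FPKM in NC and 38.5 and 41.1 in YTHDF2-KD embryos (log2 fold change -0.41 ± 0.40 (SE), adjusted p = 0.514). *SRSF12* lay apart in the other direction, at 4.07 and 5.30 FPKM in NC and 7.93 and 9.74 in YTHDF2-KD embryos (log2 fold change 0.79 ± 0.43 (SE), adjusted p = 0.225). The summed level of the SRSF genes was 1810 ± 146 FPKM (SD, n = 2) in NC and 1225 ± 90.2 in YTHDF2-KD embryos.

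Among the remaining genes *SF3B1* was at 75.8 and 90.7 FPKM in NC and 59.4 and 32.3 in YTHDF2-KD embryos (log2 fold change -0.90 ± 0.42 (SE), adjusted p = 0.168) and *U2AF1* at 56.4 and 42.0 FPKM in NC and 34.5 and 20.9 in YTHDF2-KD embryos (log2 fold change -0.83 ± 0.42 (SE), adjusted p = 0.203). Both were lower in each YTHDF2-KD library than in each NC library and neither passed. *PRPF38A* was at 170.3 and 230.4 FPKM in NC and 143 and 118 in YTHDF2-KD embryos (log2 fold change -0.61 ± 0.39 (SE), adjusted p = 0.303), and *PRPF8* at 8.23 and 5.73 FPKM in NC and 4.53 and 3.01 in YTHDF2-KD embryos (log2 fold change -0.74 ± 0.44 (SE), adjusted p = 0.265). Of the 13 PRPF genes 0 passed, and their median log2 fold change was 0.03. Replicates of the knockdown differed in the set about as much as over all genes. Of the 48 genes 9 were more than 2-fold higher in YTHDF2-KD replicate 1 than in replicate 2 (*PRPF31*, *PRPF40B*, *PRPF4B*, *PRPF6*, *SF3A1*, *SF3A2*, *SRSF5*, *U2AF1L4* and *U2AF2*), against 16.2% of all genes.

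**Figure D4:**
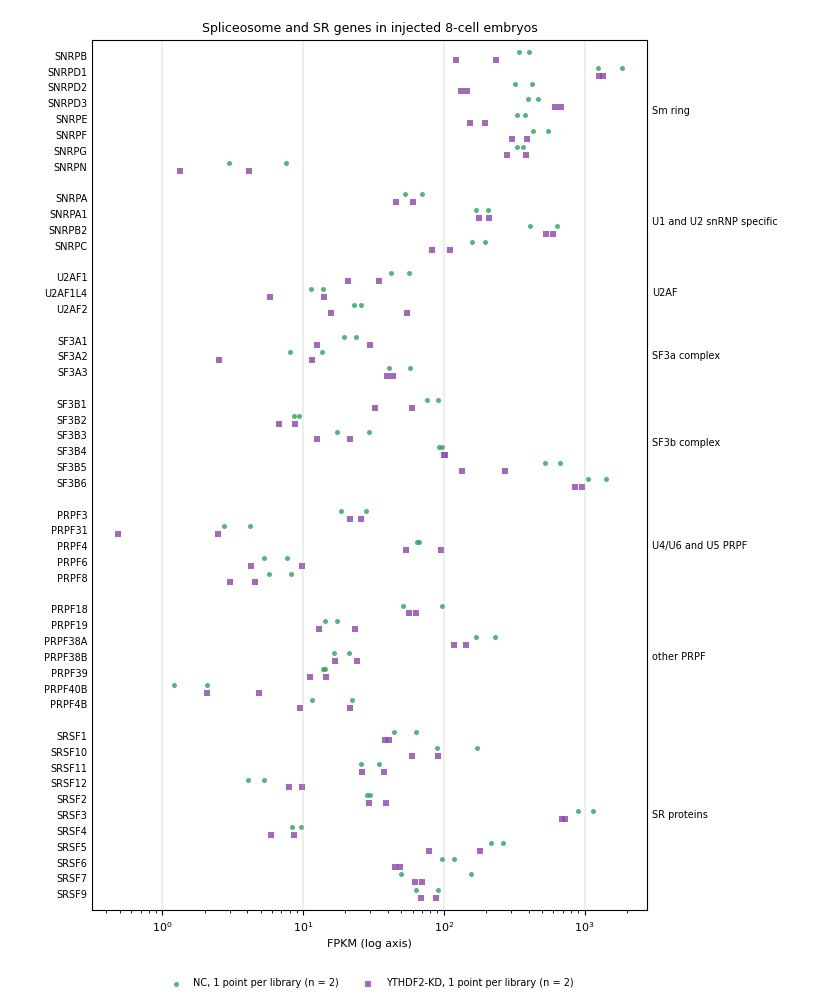
FPKM of 47 of the genes in the 2 NC and the 2 YTHDF2-KD libraries, on a log axis, with 1 point per library, sorted by complex. *SF3B5* and *SNRPD2*, which passed the test, lie to the left in YTHDF2-KD embryos, as do *SNRPB*, *SNRPE* and *SRSF6*, which did not pass, and *SNRPD3* and *SRSF12* lie to the right.

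The control-injected embryos and the untreated 8-cell embryos were at one nominal stage, yet the level of the set differed between them. Their tables were normalized separately and came from different studies, so the following levels are given side by side with no test. The 48 genes summed to 9603 ± 570 FPKM (SD, n = 2) in NC and 1946 ± 263 (SD, n = 3) in untreated 8-cell embryos. The mean was higher in NC embryos for 43 of the 48 genes, with a median difference of 1.30 in log2(FPKM + 1), where 49.1% of 10528 genes were higher and the median was -0.04. The rise was not limited to the set. Of 134 other genes of the splicing machinery, listed below, 95 (70.9%) were also higher in NC embryos. The difference was over 3 in 15.7% of these, in 16.7% of the set and in 9.19% of all genes. The listed FPKM of all shared genes summed to 547926 and 594272 in NC and to 369990 to 390019 in untreated 8-cell embryos. Sm ring genes differed most, with a median of 3.06. *SNRPB* had a mean of 371 FPKM in NC and 1.39 in untreated embryos, *SF3B5* of 600 and 17.6, *U2AF1* of 49.2 and 1.27, *SNRPD1* of 1543 and 114, and *SF3B6* of 1248 and 108. By contrast *PRPF40B*, *PRPF3*, *SRSF4*, *SRSF12* and *PRPF39* were lower in NC embryos. Markers of genome activation and lineage, such as *POU5F1* and *KLF17*, summed to 3167 to 3911 FPKM in NC and to 369 to 1385 FPKM in untreated 8-cell embryos, and the 9 oocyte genes to 492 to 736 and 2497 to 2843 FPKM. The 13 cumulus cell genes summed to 46.1 to 55.1 FPKM in NC and 95.8 to 143 in untreated 8-cell embryos, and 3 genes of spermatozoa to 12.3 to 12.6 and 0.301 to 0.746 FPKM. The part of these cells in the difference was not tested. Injection, source study, hour of collection and processing cannot be told apart in this difference.

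**Figure D5:**
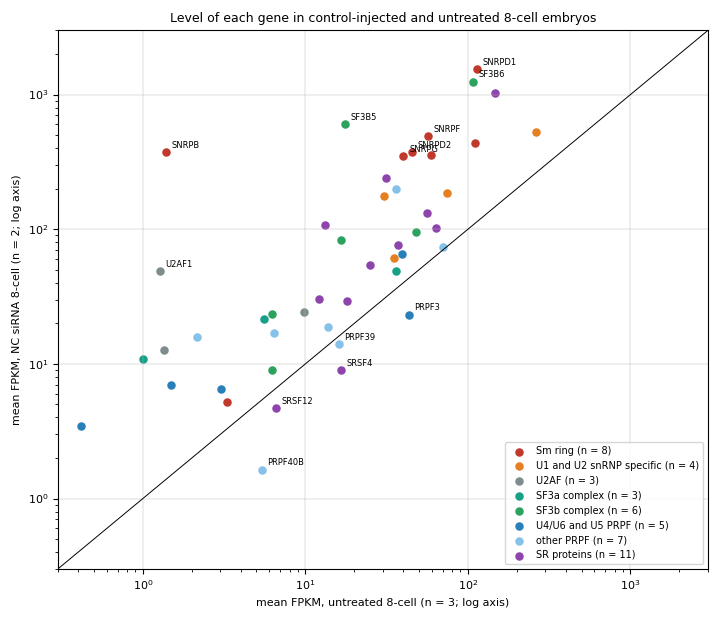
Mean FPKM of 47 of the genes in NC embryos (n = 2) against untreated 8-cell embryos (n = 3), both on log axes, coloured by complex, with the line of equal values. Genes are named where the log2 difference of FPKM + 1 is over 3 or below 0. *SNRPB* lies farthest above the line (371 against 1.39 FPKM), and 5 genes lie below it.

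For comparison, the other genes of the splicing machinery were taken in 10 lists of 136 listed genes, such as LSm proteins, hnRNP proteins, helicases and snRNP assembly factors. At the 4-cell stage 32 of the 129 tested rose and 11 fell compared to MII oocytes, and at the 8-cell stage 30 rose and 15 fell. These counts were near the shares of all genes (24.7% and 6.42%, and then 27.3% and 10.0%). *LSM4*, of the LSm ring, and *GEMIN2*, of the SMN complex that loads Sm rings onto RNA, had the largest increases at the 4-cell stage (2.24 and 2.17, log2), and *LSM7* fell most, from 332 ± 183 FPKM (SD, n = 3) in MII oocytes to 35.5 ± 14.3 in 4-cell embryos. *UPF3B* fell by 1.46 on the log2 scale. At the 8-cell stage *LSM4* and *LSM2* had the largest increases (2.51 and 2.27), and *LSM7* (-4.88) and *HNRNPH2* (-1.81) the deepest falls. Between the 4-cell and 8-cell stages 4 rose and 7 fell (3.06% and 5.24% of all genes), led by *HNRNPAB* (1.24) and *HNRNPDL* (1.22), and by *MAGOH* (-1.83) and *HNRNPU* (-1.12).

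In the snRNP assembly list, which holds the SMN complex, Sm protein methylation, cap-binding and RNA transport factors, 5 of 15 tested genes rose and 0 fell at each stage compared to MII oocytes, where 24.7% and 27.3% of all genes rose, and 0 rose and 1 fell (*CLNS1A*, named after its values were seen) between the embryo stages. Of the 9 spliceosomal helicases 1 rose and 3 fell at the 4-cell stage, and 1 rose and 2 fell at the 8-cell stage, where of all genes 6.42% and then 10.0% fell. In YTHDF2-KD embryos 1 of the 134 other splicing genes rose compared to NC embryos, *DYRK1A* (1.78), a kinase that phosphorylates SR proteins, and 7 fell, led by *SUGP1* (-1.89) and *NCBP2* (-1.80), counts that were no more than the shares of all genes (2.06% and 5.92%). *PHF5A*, a subunit of SF3B that the naming rule did not take, was among the 7, and is named after its values were seen (log2 fold change -1.37 ± 0.39, 336 ± 83.7 FPKM (SD, n = 2) in NC and 130 ± 34.7 in YTHDF2-KD embryos). The median of the other splicing genes in this comparison was -0.24, close to the -0.23 of the spliceosome and SR genes.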

How the data were processed

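RNA was measured in goat MII oocytes and in 4-cell and 8-cell embryos. Per the labels and the methods of the study, the authors aligned paired reads to goat genome ARS1 with HISAT2, kept uniquely placed reads, counted them with HTSeq and normalized them to FPKM, and the deposited tables hold FPKM alone. For the 9 untreated libraries FPKM values moved in steps of 1 fragment, and whole fragments were recovered for 17917 of the 17918 genes above 0 that the 3 stages share (tolerance 0.02 fragments), which gave library totals of 26853876 to 42495116. For genes of few fragments this count limits the precision. The depth of the 4 injected libraries, rounded by the authors, is unknown. Samples were grouped by their titles. The titles of the NC samples read WT, and the negative control siRNA is taken from the methods of the study. Nothing says whether replicates of a stage were separate collections, so p-values measure the spread between these samples, which may be technical.

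The 48 genes were chosen by name, by the patterns SF3A or SF3B, SRSF, SNRP and PRPF followed by their numbers or letters, and U2AF, in the table of 18138 names shared by the 5 groups. The members, the lists of other splicing genes and the markers were chosen with earlier results of these data known. A linear model of log2(FPKM + 1) was fitted by limma (version 3.58.1, R version 4.3.3), with moderated variances that followed a mean-variance trend, and genes whose mean was under 1 FPKM were left out. The 9 untreated libraries entered 1 fit and the 4 injected libraries another, with no covariate. p-values were adjusted by Benjamini-Hochberg over all genes of a fit (9090 and 11004), and a call is an adjusted p under 0.05. Fold changes are on the FPKM + 1 scale and understate those of low genes. The fits were tested on simulated data. Values per library are given for called genes of the largest change (up to 4 per direction and comparison), the 3 highest genes, genes whose groups lay apart in a stage comparison and in the knockdown, and for a few further genes chosen after their values were seen. Other pseudocounts, filters, scalings, fits with a replicate block and fits without 1 replicate were tried, and voom was run on the recovered fragments. The values of 1 gene of the set are not reported here, although it is in the counts, medians and sums. Promoter and protein sequences of the members were not used here. The siRNA strands were read from the supplement of the study.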

Additional observations from a re-analysis of the deposited data

How the results depend on the processing

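Of the 4 comparisons, the count of called genes stayed within 1.5 times its value in all 11 other fits that kept every library for 4-cell against MII (16 genes) and for 8-cell against MII (26 genes), but the split of the calls moved, from 12 higher and 4 lower to 5 and 10 with equal sums and 5 and 12 by voom for the first, and from 13 and 13 to 7 and 16 and to 7 and 17 for the second. For 8-cell against 4-cell, 4 genes were called, but 1 with median-ratio scaling, 2 with only the 2 stages compared and 2 with a replicate block. For YTHDF2-KD against NC, 2 genes were called, but 0 by limma with no filter on low values, with median-ratio scaling and with quantile normalization (6, 6 and 5 lower and 0, 0 and 1 higher at an unadjusted p under 0.05), 1 without the mean-variance trend, 1 with equal sums without the 50 highest genes, and 5 by the rule of the study. Leaving out 1 replicate gave 8 to 22 genes for 4-cell against MII (8 without MII replicate 1). Over these fits 16.5% to 30.4% of all genes were higher and 3.37% to 10.2% lower. For 8-cell against MII it gave 21 to 26 genes, with 19.2% to 28.6% of all genes higher and 6.92% to 13.7% lower. For 8-cell against 4-cell it gave 0 to 4 genes, with 0.947% to 2.70% of all genes higher and 1.61% to 4.59% lower. There were 0 without 4-cell replicate 3, 1 without 4-cell replicate 1, and 2 each without 4-cell replicate 2, 8-cell replicate 2 or 8-cell replicate 3. For YTHDF2-KD against NC each such fit left 1 library in a group. The log2 fold changes in these fits were -2.13 to -1.13 for *SF3B5* and -1.60 to -1.21 for *SNRPD2*. The cause was not tested. Where 1 sample remained in a group, it was taken to vary like the others. For single genes, 462 of 545 values in other fits and 385 of 464 values without 1 replicate kept their side of the threshold, 76 and 76 lost it, 7 and 3 gained it and 0 changed sign.

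The replicate numbers did not pair the samples: deviations from the group means correlated at -0.5085 to 0.2012 between stages and at -0.1523 in the knockdown. With the replicate block 14 genes were called for 4-cell against MII, 22 for 8-cell against MII, 2 for 8-cell against 4-cell and 0 for YTHDF2-KD against NC (0 higher and 5 lower at an unadjusted p under 0.05). A block with crossed numbers, chosen after seeing the data, gave 6 genes for YTHDF2-KD against NC. Depth limits *PRPF31* and *SF3A2*, which had down to 1 fragment in a library.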
